A study of Drosophila melanogaster with 36 samples.

Results

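Superoxide dismutases turn superoxide into hydrogen peroxide, and catalase, peroxiredoxins and glutathione peroxidases remove the peroxide. In Drosophila, thioredoxin reductase supplies reducing power to the thioredoxin system and, in place of a glutathione reductase, also keeps glutathione reduced. Glutamate-cysteine ligase makes the first and rate-limiting step of glutathione synthesis. Keap1 holds the transcription factor CncC in check until oxidants or electrophiles release it. The fat body, the insect counterpart of liver and adipose tissue, stores and mobilises fuel.

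The antioxidant defence genes described here were 10 genes chosen by name, namely Sod1, Sod2, Cat, Trxr1, Jafrac1, Prx5, Gclc, Gclm, PHGPx and Keap1, and all probe sets under their current or older symbols were sought. A single probe set was found for each of 7 of the 10, and all 7 passed the filter that kept the brightest 60% of probe sets, among 8472 tested genes in all. Sod1, Jafrac1 and Prx5 had no probe set under their symbols in the annotation used and are not analysed here. The probe sets were 1622984_at for Sod2, 1639480_at for Cat, 1641487_a_at for Trxr1, 1625362_at for Gclc, 1640552_at for Gclm, 1628257_s_at for PHGPx, whose current symbol is Gtpx, and 1633773_s_at for Keap1. A suffix of _s_at marks a set that may match transcripts of more than one gene, so the PHGPx and Keap1 values may hold related transcripts. The same holds for cnc, Trx2 and Idh1 among the related genes named below. A suffix of _a_at marks alternative transcripts of the same gene.

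Abdominal fat body RNA of adult male Drosophila melanogaster was measured on 36 arrays, 12 labelled dnClk and 24 labelled WT. All flies had emerged recently and were held for 5 days in alternating 12 h light and 12 h darkness at 25 degrees. Collection began on day 6 and ran for 2 consecutive days, every 4 h for dnClk and every 2 h for WT, with 10 fat bodies pooled for each array and no repeat of any time point. WT flies were w; UAS-dnClk/+ and so carried the transgene, with no driver named, and no source used here gives the driver in the dnClk flies. By common usage, dnClk stands for a dominant negative form of Clock, the activator that drives the fly's daily oscillator. Time is given as ZT, hours after lights on of the first collection day. Without repeats, the arrays of a course around a fitted 24 h curve stood in for replicates, and p-values measured only the spread between these arrays, part of which may be technical.

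The arrays of the genotypes differed in more than the members. The bacterial hybridisation controls averaged 9.87 to 10.61 log2 units on dnClk arrays and 11.54 to 12.67 on WT arrays, and the 99th percentile of intensity was 1593 to 2088 in dnClk and 2692 to 4438 in WT. The Act5C probe sets differed by 0.93 to 2.08 between the 3′ and 5′ ends in dnClk and by 2.57 to 4.42 in WT, in log2 units. Of 10 measured fat body markers, 1 was higher and 8 were lower in dnClk, and their mean was 8.95 to 9.26 against 9.92 to 11.06 in WT. All 9 haemocyte markers were higher, at a mean of 7.82 to 8.46 in dnClk and 6.51 to 7.23 in WT, and 7 of 9 measured accessory gland and ejaculatory tract markers were higher, at 7.14 to 8.29 and 6.24 to 8.19. The 15 measured testis markers had means of 7.04 to 9.92 in dnClk and 5.12 to 10.72 in WT, where 12 arrays lay at 8.47 or above and 12 at 7.37 or below, and none of the 15 was called different. Genotype cannot be told apart from how the arrays were processed, and in pooled tissue fewer cells of a type and less RNA per cell cannot be told apart. The part of these measures in the results below was not tested beyond the covariate fits given beside each gene. Because the fat body means of the genotypes did not overlap, fits with that covariate compare the courses at values that both do not share. Such fits extrapolate and cannot separate genotype from the fat body mean, so their differences and calls are given only as descriptions. The accessory gland means overlapped in part, but averaged 7.69 in dnClk and 6.82 in WT. Fits with the testis and accessory gland covariates therefore cannot fully separate genotype from that mean either.

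Between genotypes, 1 of the 7 genes was higher in dnClk, 2 were lower and 4 did not pass the test (limma, adjusted p under 0.05). Trxr1, the main thioredoxin reductase, was 2.28-fold higher, and was called higher after quantile normalization and centring each array on its median too. Scaling to the hybridisation controls also called it higher, but called 98.5% of all tested probe sets higher, so it does not set Trxr1 apart. Cat, which encodes catalase, was 1.66-fold lower and Sod2, the mitochondrial superoxide dismutase, 1.26-fold lower, but both were called higher when arrays were scaled to the hybridisation controls, and Cat was not called after quantile normalization. Over all tested probe sets, 39.3% were called higher in dnClk and 17.7% lower, so calls in both directions were common on these arrays. The median difference, dnClk minus WT, was -0.03 log2 units over the 7 genes and 0.23 over all tested genes.

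That background depended on the scaling. The median over all tested probe sets was 0.25 as deposited, and higher calls made up 69% of all calls. Quantile normalization gave a median of -0.01 with 43.7% of calls higher, centring each array on its median gave -0.06 with 31.7% higher, and scaling to the hybridisation controls gave 2.01 with 99.4% higher. Relative to the median of all probe sets under the same scaling, Trxr1 stood at 0.93 with the deposited values, 1.53 with quantile normalization, 0.93 with centring and 1.21 with control scaling. On that relative scale, in the same order, Sod2 stood at -0.59, -0.34, -0.59 and -0.33, and Gclm at -0.55, -0.41, -0.55 and -0.31. Cat stood at -0.98, 0.14, -0.98 and -0.68, so that quantile normalization alone placed it above the median. Subtracting the median makes the deposited and centred values equal by construction. Trxr1 was above the median, and Sod2 and Gclm below it, under each of the 3 scalings that differ in this way, while Gclc, PHGPx and Keap1 lay on both sides.

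**Figure D1:**
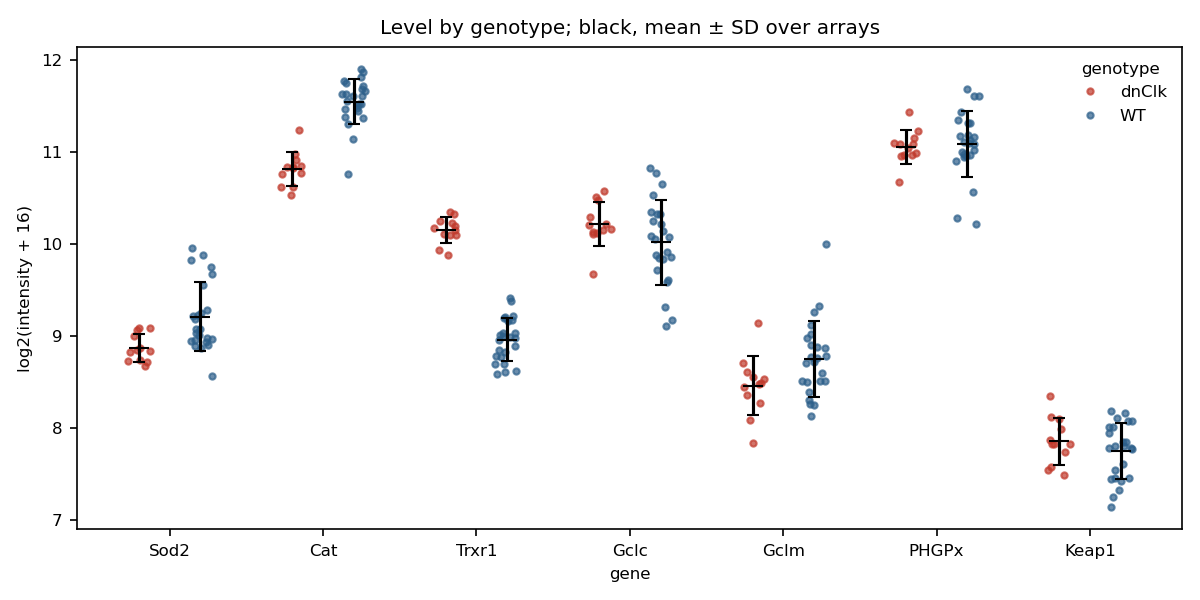
Values of the 7 antioxidant defence genes by genotype. Each point is 1 array, in log2(intensity + 16), with dnClk (n = 12) left of WT (n = 24) and black bars for mean ± SD. Trxr1 is the gene whose groups do not overlap, at 10.15 ± 0.14 in dnClk and 8.96 ± 0.24 in WT. How common this is over all probe sets was not counted. Levels of different genes come from different probe sets and are not comparable.

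Mitochondrial superoxide dismutase, Sod2, had intensities of 393, 442 and 527 in dnClk (lowest, median and highest), against 364, 522 and 973 in WT. The groups overlapped, and every dnClk value lay within the WT range. The mean was 8.87 ± 0.15 log2 units in dnClk (SD, n = 12) and 9.21 ± 0.37 in WT (n = 24), a difference of -0.34 ± 0.11 (SE, 95% interval -0.57 to -0.10, limma adjusted p = 0.013). It was lower in dnClk at 8 of the 12 shared times. The call rested on the second collection day, where the difference was -0.63 (adjusted p = 0.016), against -0.04 on the first day (adjusted p = 0.64). With the testis and accessory gland marker means as covariates the difference was 0.05 (adjusted p = 0.78), and with the fat body marker mean as a covariate it was 0.97 (adjusted p = 4.9e-05). Without the 12 WT arrays with a high testis mean it was -0.56 (adjusted p = 0.0018), and centring gave -0.65 (adjusted p = 0.00079). The fit without those WT arrays kept all dnClk arrays, whose testis means ran from 7.04 to 9.92. It therefore did not match the testis signal between genotypes. With the shared time as a block, Sod2 was not called (-0.33, adjusted p = 0.053).

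Catalase, Cat, had intensities of 1461, 1796 and 2408 on dnClk arrays, against 1715, 3042 and 3816 in WT. The groups overlapped only through the WT arrays at ZT 24 and ZT 46, which lay below the highest dnClk array at ZT 44. The mean was 10.81 ± 0.19 in dnClk and 11.54 ± 0.25 in WT, a difference of -0.73 ± 0.079 (SE, 95% interval -0.89 to -0.57, limma adjusted p = 1.2e-09), with lower values in dnClk at 11 of 12 shared times. The size of this difference exceeded that of 78.9% of tested genes. It was -0.67 with the fat body covariate (adjusted p = 0.0085), 0.13 after quantile normalization (adjusted p = 0.22) and 1.33 after control scaling.

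Trxr1 had intensities of 925, 1127 and 1292 on dnClk arrays, against 367, 490 and 664 in WT. The groups did not overlap, and the lowest dnClk array, at ZT 8, exceeded the highest WT array, at ZT 38. The share of all tested probe sets without overlap was not counted. The mean was 10.15 ± 0.14 in dnClk and 8.96 ± 0.24 in WT, a difference of 1.19 ± 0.077 (SE, 95% interval 1.03 to 1.34, limma adjusted p = 5.1e-15). It was higher in dnClk at 12 of 12 shared times, and the size of the difference exceeded that of 91.4% of tested genes. Trxr1 was called higher under every scaling and covariate tried, with differences of 0.88 after centring, 1.52 after quantile normalization, 3.22 after control scaling, 1.31 with the testis and accessory gland covariates and 1.94 with the fat body covariate. Control scaling called 98.5% of all tested probe sets higher. The difference of Trxr1 was 1.24 on the first day alone and 1.14 on the second. Leaving out each array in turn gave 1.17 to 1.22.

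The subunits of glutamate-cysteine ligase did not pass the test. Gclc, the catalytic subunit, had intensities of 800.1, 1144 and 1501 on dnClk arrays, against 537, 1053 and 1798 in WT. All dnClk values lay inside the WT range, and the difference was 0.20 ± 0.12 (95% interval -0.04 to 0.44, limma adjusted p = 0.15). Gclm, the modifier subunit, had intensities of 212, 341 and 548 on dnClk arrays, against 264, 411 and 1005 in WT. The lowest of these values was in dnClk at ZT 0, the highest in WT at ZT 26, and the groups overlapped. Its difference was -0.29 ± 0.14 (95% interval before adjustment -0.57 to -0.02, adjusted p = 0.066), with lower values in dnClk at 10 of 12 shared times. On the first day alone Gclm was called lower at -0.48 (adjusted p = 0.0092), and on the second day its difference was -0.11 (adjusted p = 0.70).

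Calls for these subunits moved with the processing. Gclc was called higher in dnClk after quantile normalization, at 0.65, with the testis and accessory gland covariates, at 0.43, and with the fat body covariate, at 1.05, while centring gave -0.11. Gclm was called lower after quantile normalization, at -0.42, after centring, at -0.60, and with the testis and accessory gland covariates, at -0.68, while control scaling gave 1.70. It was also called lower at the shared times, at -0.32 both with the time as a block (adjusted p = 0.038) and without 24 h terms (adjusted p = 0.025), and at -0.46 without the WT arrays with a high testis mean (adjusted p = 0.041). That last fit kept all dnClk arrays, whatever their testis mean. Leaving out 1 array also brought the Gclm call past the threshold for 4 arrays, dnClk at ZT 44 and WT at ZT 30, ZT 34 and ZT 46, with differences of -0.35, -0.32, -0.32 and -0.32.

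PHGPx, a peroxidase that in flies takes its electrons from thioredoxin, had intensities of 1608, 2115 and 2743 on dnClk arrays, against 1165, 2181 and 3259 in WT. The medians lay close together and the dnClk range fell inside the WT range. The difference was -0.03 ± 0.11 (95% interval -0.25 to 0.19, limma adjusted p = 0.80), but quantile normalization gave 0.90 (adjusted p = 5.1e-13). Keap1, the sensor that restrains CncC, had intensities of 164, 211 and 309 on dnClk arrays, against 125, 205 and 276 in WT. Its groups overlapped over most of their ranges, with a difference of 0.11 ± 0.099 (95% interval -0.09 to 0.31, adjusted p = 0.35). With the fat body covariate Keap1 was called higher, at 0.72 (adjusted p = 0.013), and PHGPx at 0.93. Neither of the intervals at the deposited scaling excluded a modest difference in either direction.

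**Figure D2:**
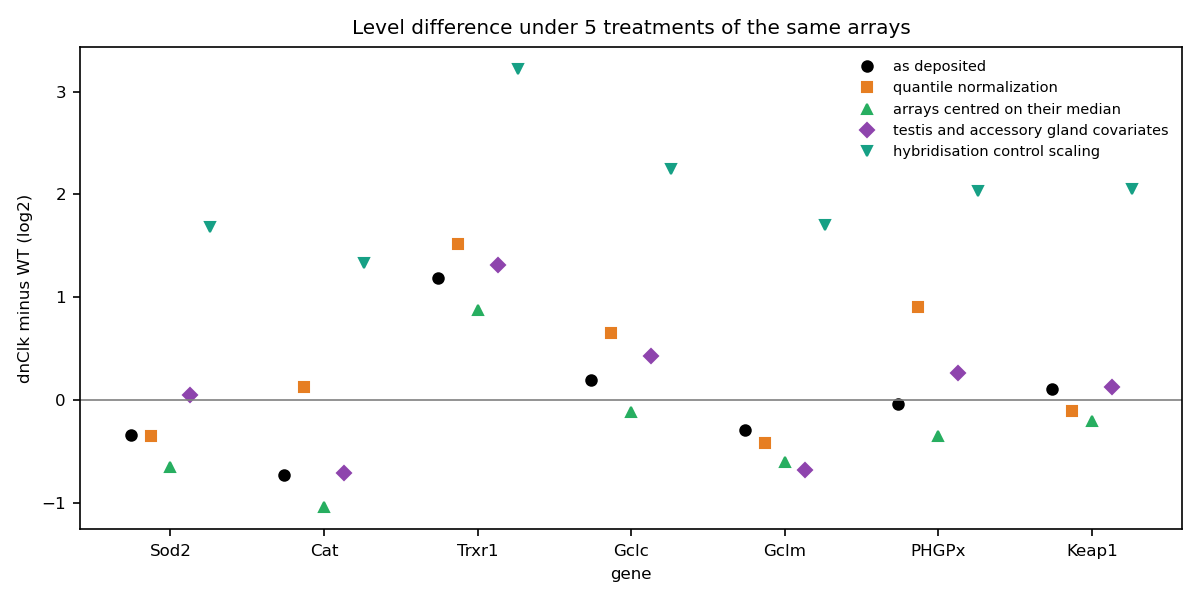
Level difference of each gene, dnClk minus WT in log2 units, under 5 treatments of the same arrays. Trxr1 lies above 0 under all 5, from 0.88 to 3.22, whereas Cat lies at -0.73 as deposited, 0.13 after quantile normalization and 1.33 after scaling to the hybridisation controls. All 7 genes lie above 0 after that control scaling, which called 98.5% of all tested probe sets higher.

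The genes also differed in how far they varied within a course. In dnClk the coefficient of variation ran from 9.67% for Trxr1 to 24.1% for Gclm, and in WT from 15.6% for Cat to 35.6% for Gclm. It was lower in dnClk for each of the 7 genes, and the widest gap was for Sod2, at 10.9% in dnClk and 28.7% in WT. The share of all tested probe sets with a lower coefficient in dnClk was not counted, so this may not be particular to these genes. The WT course also had 12 arrays at times dnClk lacked, and its testis marker mean spanned a wider range.

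The daily course of the 7 genes was tested as a 24 h cosine. None was called rhythmic in dnClk, where 0.0355% of probe sets were, or in WT, where 0.648% were (limma moderated F). None was called in WT at the 12 times shared with dnClk either, where 0.0888% of probe sets were. At an unadjusted p under 0.05 there were 0 of 7 in dnClk, 1 of 7 in WT and 2 of 7 in WT at the shared times, beside 1.72%, 8.6% and 8.04% of all probe sets. No difference in rhythm between dnClk and WT was called for any of the 7, nor for any probe set (0%, where 179 had an unadjusted p under 0.05), and the adjusted p was 0.98 for each of the 7. In simulated data, rhythms of 0.5 log2 units from mean to peak were recovered for 15 of 100 probe sets in dnClk. In WT the count was 66 of 100. Rhythms of that size could therefore be missed, above all in dnClk.

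Gclc came nearest to a rhythm. Its fitted amplitude, the distance from mean to peak, was 0.13 ± 0.094 in dnClk (SE, limma adjusted p = 0.86) and 0.40 ± 0.11 in WT (adjusted p = 0.20). The WT curve had a 1.74-fold range and peaked at ZT 17.9 ± 1.0 h. The highest WT values of Gclc, 1798 at ZT 40 and the values at ZT 20 and ZT 22, fell in the dark hours of both days, and the lowest, 537, fell at ZT 4. For the other 6 genes the amplitude was 0.02 to 0.25 in dnClk and 0.10 to 0.19 in WT, each with an adjusted p of 0.63 or above.

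**Figure D3:**
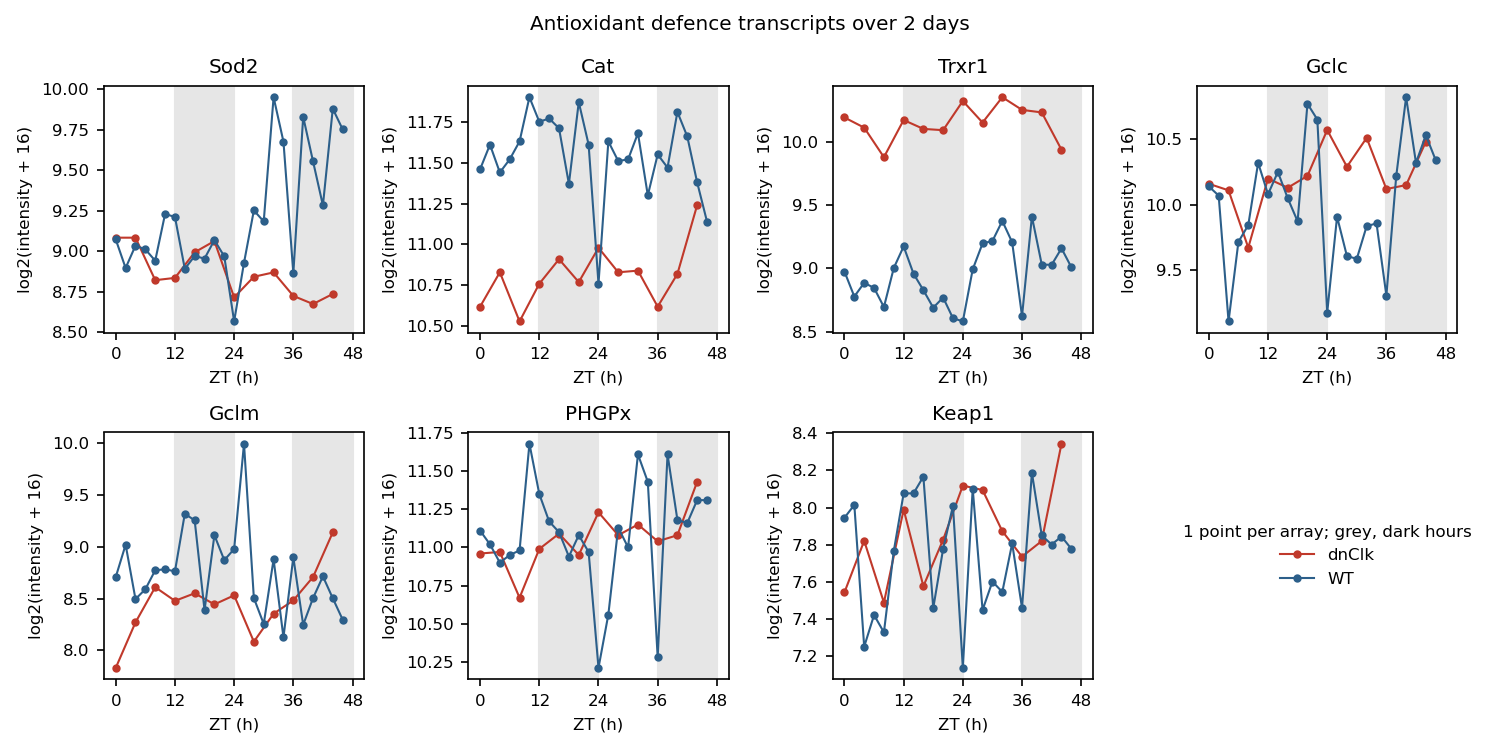
The 7 genes over the 2 collection days, in log2(intensity + 16) against ZT in hours, 1 point for each dnClk array (every 4 h) and WT array (every 2 h), with dark hours in grey. The dnClk line for Trxr1 runs above the WT line throughout, and the WT line for Sod2 reaches its highest value, 9.95, at ZT 32.

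The same hours were sampled on both days, which gave the only near repeats in the series. No gene was called different between day 2 and day 1 in dnClk, where 1.45% of probe sets were, or in WT, where 0.391% of probe sets were higher on day 2 and 1.96% lower. At an unadjusted p under 0.05 there were 4 of 7 in dnClk and 2 of 7 in WT (limma), beside 18.2% and 20.8% of all probe sets. Simulated day differences of 0.5 log2 units were recovered for 4 of 100 probe sets in dnClk and 34 of 100 in WT. Changes of that size could therefore be missed. Sod2 showed the largest day difference in WT among the 7. In dnClk it averaged 8.76 ± 0.077 on day 2 and 8.98 ± 0.12 on day 1 (SD, n = 6 each), a difference of -0.22 ± 0.071 (SE, adjusted p = 0.16). In WT it averaged 9.39 ± 0.45 on day 2 and 9.02 ± 0.11 on day 1 (SD, n = 12 each), a difference of 0.37 ± 0.13 (adjusted p = 0.12).

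The wide spread of Sod2 on WT day 2 came from 6 arrays. Those at ZT 32, 34, 38, 40, 44 and 46 lay at 9.55 to 9.95 log2 units, and all other WT arrays lay at 9.28 or below. On those 6 arrays the fat body marker mean was 10.68 to 11.06, and the testis marker mean was 5.12 to 6.97. The WT arrays at ZT 12, ZT 16 and ZT 26 had testis means of 6.51, 6.34 and 6.87. Their fat body means were 10.61, 10.45 and 10.65, and their Sod2 values 9.21, 8.97 and 8.93. The WT array at ZT 36, in time between the 6 arrays, had a Sod2 value of 8.87 with a fat body mean of 10.09 and a testis mean of 10.72. The part of tissue content in the high Sod2 values was not tested beyond the covariate fits. The WT day difference of Sod2 was 0.37 with the testis and accessory gland covariates (limma adjusted p = 0.0026) and 0.13 with the fat body covariate (adjusted p = 0.40). The first of these fits called 27.7% of all tested probe sets and the second 6.87%.

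The day difference itself was compared between genotypes in a joint fit that was added after the data were seen. None of the 7 genes passed, against 2.57% of probe sets, and 2 of 7 had an unadjusted p under 0.05 (limma), as did 23.4% of probe sets. A simulated difference of 1 log2 unit was recovered by this fit for 47 of 100 probe sets. The day difference of Sod2 in dnClk minus that in WT was -0.59 ± 0.20 (SE, adjusted p = 0.091). It was higher on day 2 in 1 of 6 same-hour pairs in dnClk and in 10 of 12 in WT. Leaving out the WT array at ZT 24, ZT 26 or ZT 36 brought this difference past the threshold, at -0.66, -0.62 and -0.66. The same omissions called 5.63%, 11.6% and 7.18% of all tested probe sets. For the WT day difference, leaving out ZT 24 brought Sod2 past the threshold at 0.44 (adjusted p = 0.036), and leaving out ZT 36 did so for Sod2 at 0.44 (adjusted p = 0.034) and Trxr1 at 0.27 (adjusted p = 0.031). Of all tested probe sets, 6.07% were called for that day difference without ZT 24 and 9.13% without ZT 36.

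**Figure D4:**
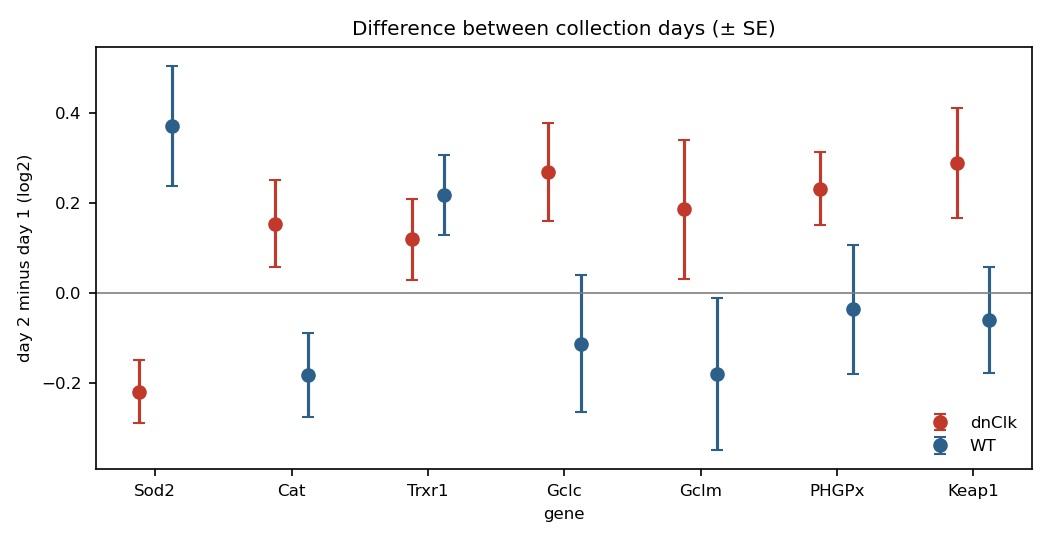
Difference between day 2 and day 1 for each gene, in log2 units ± SE, dnClk left of WT. Sod2 is negative in dnClk (-0.22) and positive in WT (0.37). None of the 14 differences passed the test.

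Several of the 7 genes varied together, or with a marker list, across the arrays of a course. In total 174 relations were computed, with permutation p-values from 100000 two-sided resamples and Benjamini-Hochberg adjustment over all of them. The clearest joined Gclm to the mean of 4 nerve markers, with r = 0.962 in dnClk (rho = 0.923, adjusted permutation p = 0.00087 for r and 0.002 for rho, n = 12) and r = 0.844 in WT (rho = 0.814, adjusted permutation p = 0.00087 for both, n = 24). Without the 2 arrays farthest from the median nerve value, r was 0.852 in dnClk and 0.794 in WT. The raw permutation p for r was 1e-05 in both genotypes, the smallest these resamples can give. The nerve marker mean was 6.29 to 7.45 in dnClk and 6.02 to 7.25 in WT, and its part in the Gclm difference between genotypes was not tested.

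Cat and PHGPx moved together in dnClk, with r = 0.90 (rho = 0.853, permutation p = 0.00021 for r and 0.00079 for rho, adjusted p = 0.0041 and 0.014, n = 12), and r was 0.703 without the 2 farthest arrays. In WT the same pair had r = 0.393 (adjusted permutation p = 0.18, n = 24), and 0.062 without the 2 farthest. In WT, Trxr1 followed PHGPx (r = 0.717, rho = 0.749, permutation p = 4e-05 and 7e-05, adjusted p = 0.0017 and 0.002, n = 24), and r was 0.62 without the 2 farthest, while in dnClk r was 0.28 (adjusted permutation p = 0.59, n = 12). Trxr1 also followed the fat body marker mean in WT (r = 0.751, rho = 0.735, permutation p = 5e-05 for both, adjusted p = 0.0017 and 0.002, n = 24), and r was 0.713 without the 2 farthest, while in dnClk r was 0.249 (adjusted permutation p = 0.64, n = 12). So did PHGPx in WT (r = 0.699, rho = 0.757, adjusted permutation p = 0.0017 and 0.00087) and Keap1 (r = 0.581, rho = 0.586, adjusted permutation p = 0.026 and 0.03). Their r in dnClk was 0.016 and -0.169. Cat, Gclc and Gclm did not pass in WT (adjusted permutation p for r = 0.7, 0.055 and 0.7). The part of the fat body mean in the relation of Trxr1 to PHGPx was not tested.

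In WT, 6 arrays lay above the others in Sod2, and its relations with other members and the fat body mean were taken separately above and below that gap. The split was made on Sod2 itself, which narrows its range in each part, so these r and p-values are descriptions. No r over all WT arrays was computed for these relations. In the 18 arrays below 9.4 log2 units, a bound set after the values were seen, Sod2 followed Trxr1 (r = 0.768, rho = 0.738, permutation p = 0.00014 and 0.00081, adjusted p = 0.003 and 0.014), with r = 0.716 without the 2 farthest. In the 6 arrays above that bound r was 0.65 (adjusted permutation p = 0.35), and in dnClk it was -0.153 (adjusted permutation p = 0.79, n = 12), or -0.652 without the 2 farthest. Between Sod2 and the fat body marker mean, r was 0.921 in those 6 WT arrays (rho = 0.943, permutation p = 0.0054 and 0.016, adjusted p = 0.036 and 0.091), or 0.994 without the 2 farthest, and 0.506 in the other 18 (adjusted permutation p = 0.14). Among the 12 WT arrays with high testis marker means, Keap1 fell as that mean increased (r = -0.898, rho = -0.783, permutation p = 4e-05 and 0.004, adjusted p = 0.0017 and 0.036), with r = -0.832 without the 2 farthest. In the 12 WT arrays with low testis means r was 0.192 (adjusted permutation p = 0.72), and in dnClk it was -0.57 (adjusted permutation p = 0.18, n = 12). Keap1 was not alone in this. Gclc fell with the testis mean in the same 12 high arrays (r = -0.80, rho = -0.797, adjusted permutation p = 0.022 and 0.03). PHGPx passed there by rank only (rho = -0.804, adjusted permutation p = 0.03, with 0.16 for r). The testis bound was also set after the values were seen.

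The genes whose WT course most resembled each member were ranked by Pearson r over 24 arrays among 8471 other genes, as a description. Sod2 was nearest to HINT1 (r = 0.962 in WT, 0.715 in dnClk), CG30002 (0.955 in WT, 0.746 in dnClk) and ND-13B (0.952 in WT, 0.884 in dnClk). Gclm was nearest to CG10943 (0.944 in WT, 0.762 in dnClk), loaf (0.932, 0.84) and CG15561 (0.929, 0.931). PHGPx was nearest to Fis1 (0.928 in WT, 0.884 in dnClk), Pgk (0.922, 0.24) and CG5577 (0.903, -0.398). For Gclc the nearest were CG43658 at 0.913, vsg at 0.888 and Pi3K68D at 0.886, whose r in dnClk was 0.425, 0.386 and 0.578. Trxr1 was nearest to AP-2sigma at 0.877, CG8320 at 0.875 and CG12171 at 0.872, with dnClk values of 0.352, -0.125 and 0.811. Cat was nearest to CG16904, CG13887 and p23, at 0.843 to 0.856 in WT and 0.817 to 0.866 in dnClk, so its neighbours held in both courses. Keap1 was nearest to Desat1, stas and Su(dx), at 0.837 to 0.85 in WT and 0.459 to 0.711 in dnClk.

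The wider redox network was described through 42 related genes, of which 34 had a probe set and 32 were tested. Of the 32, 6 were higher in dnClk, 12 were lower and 14 did not pass (limma), beside 39.3% and 17.7% of all probe sets in those directions. Their median difference was -0.10 log2 units, against 0.23 over all tested genes. After control scaling all 32 were called higher and none lower, and 98.5% of all tested probe sets were called higher. The directions below are therefore those of the deposited scaling and, where stated, of the others. Where groups are said not to overlap, the share of all tested probe sets without overlap was not counted.

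Among the transcription factors and partners of the Keap1 pathway, 3 of 4 were lower in dnClk and none was higher, namely cnc, maf-S and p62, an adaptor that binds Keap1 in mammals. cnc, the gene that encodes CncC, was 9.86 ± 0.17 in dnClk and 10.40 ± 0.32 in WT (difference -0.54, adjusted p = 1.4e-05). Whether its probe set measures the CncC transcript in particular was not checked. maf-S, the small Maf partner of CncC, was lower at 12 of 12 shared times (difference -0.35, adjusted p = 1.8e-06). These genes were chosen for mention after their values were seen. After quantile normalization maf-S alone stayed lower, at -0.35, while cnc was not called (-0.18, adjusted p = 0.051) and p62 was called higher, at 0.64 (adjusted p = 8.1e-08). With the fat body covariate none of these 3 was called, at 0.39 for cnc, -0.13 for maf-S and 0.04 for p62 (adjusted p = 0.085, 0.46 and 0.89). With the testis and accessory gland covariates p62 was not called (-0.27, adjusted p = 0.11). GstD1, a glutathione S-transferase widely used as a reporter of CncC activity, did not pass (0.11, adjusted p = 0.39), but was called higher after quantile normalization, at 1.02 (adjusted p = 1e-13), and with the fat body covariate, at 1.23 (adjusted p = 9e-06).

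NADPH is the source of electrons for Trxr1, and 2 of 3 measured NADPH-supply genes were lower in dnClk. Men, the cytosolic malic enzyme, was 10.52 ± 0.12 in dnClk and 12.17 ± 0.38 in WT (difference -1.65, adjusted p = 1.6e-15). Idh1, which encodes NADP-dependent isocitrate dehydrogenase, was 11.20 ± 0.13 in dnClk and 12.38 ± 0.30 in WT (difference -1.18, adjusted p = 5.7e-13), but its difference was -0.01 after quantile normalization (adjusted p = 0.94). Neither gene's groups overlapped, and Men was called lower under quantile normalization and centring too. With the fat body covariate Men was -0.68 (adjusted p = 0.006) and Idh1 was not called (-0.11, adjusted p = 0.53). After control scaling both were higher, at 0.41 for Men and 0.88 for Idh1.

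In glutathione turnover 2 of 4 genes were higher and 1 was lower. Ggt-1, a gamma-glutamyl transpeptidase, was 8.42 ± 0.26 in dnClk and 7.07 ± 0.28 in WT (difference 1.35, adjusted p = 1.7e-13), with no overlap. GstO3, an omega class glutathione S-transferase, was 10.78 ± 0.44 in dnClk and 9.39 ± 0.32 in WT (difference 1.40, adjusted p = 1.2e-11). Both were higher at 12 of 12 shared times and under all 4 scalings.

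Among thioredoxins and glutaredoxins 2 of 8 were higher and 2 lower. Grx1, a glutaredoxin, was 8.88 ± 0.15 in dnClk and 10.28 ± 0.48 in WT (difference -1.40, adjusted p = 3.9e-10), with no overlap, but it was 0.46 with the fat body covariate and 0.63 after control scaling. Trx2, the main cytosolic thioredoxin and a substrate of Trxr1, differed by 0.23 (adjusted p = 0.005) and by -0.08 after centring. dhd, a germline thioredoxin, differed by 0.44 (adjusted p = 0.022) and by -0.16 with the testis and accessory gland covariates, and it was not called after quantile normalization or centring.

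Of the other superoxide dismutase genes, Sod3, the extracellular enzyme, was 7.46 ± 0.25 in dnClk and 6.61 ± 0.18 in WT (difference 0.86, adjusted p = 8.5e-12). It was called higher after quantile normalization and centring too. The copper chaperone CCS did not pass. Among 4 peroxiredoxin and sulfiredoxin genes 1 was lower and none was higher. In the group of repair and other genes 1 of 7 was higher, MsrA, a methionine sulfoxide reductase, at 0.80. The 3 lower ones were foxo at -0.82, Irc, an immune-regulated catalase, at -0.76, and Sesn, a sestrin, at -0.71 (adjusted p = 4.4e-08, 3.1e-05 and 1e-07). All 3 were higher after control scaling, and Irc was also called higher with the fat body covariate, at 0.99. That covariate also ended the call for Sesn (-0.18, adjusted p = 0.55) and left foxo at the threshold (-0.66, adjusted p = 0.05), and quantile normalization ended that for Irc (-0.18, adjusted p = 0.097).

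**Figure D5:**
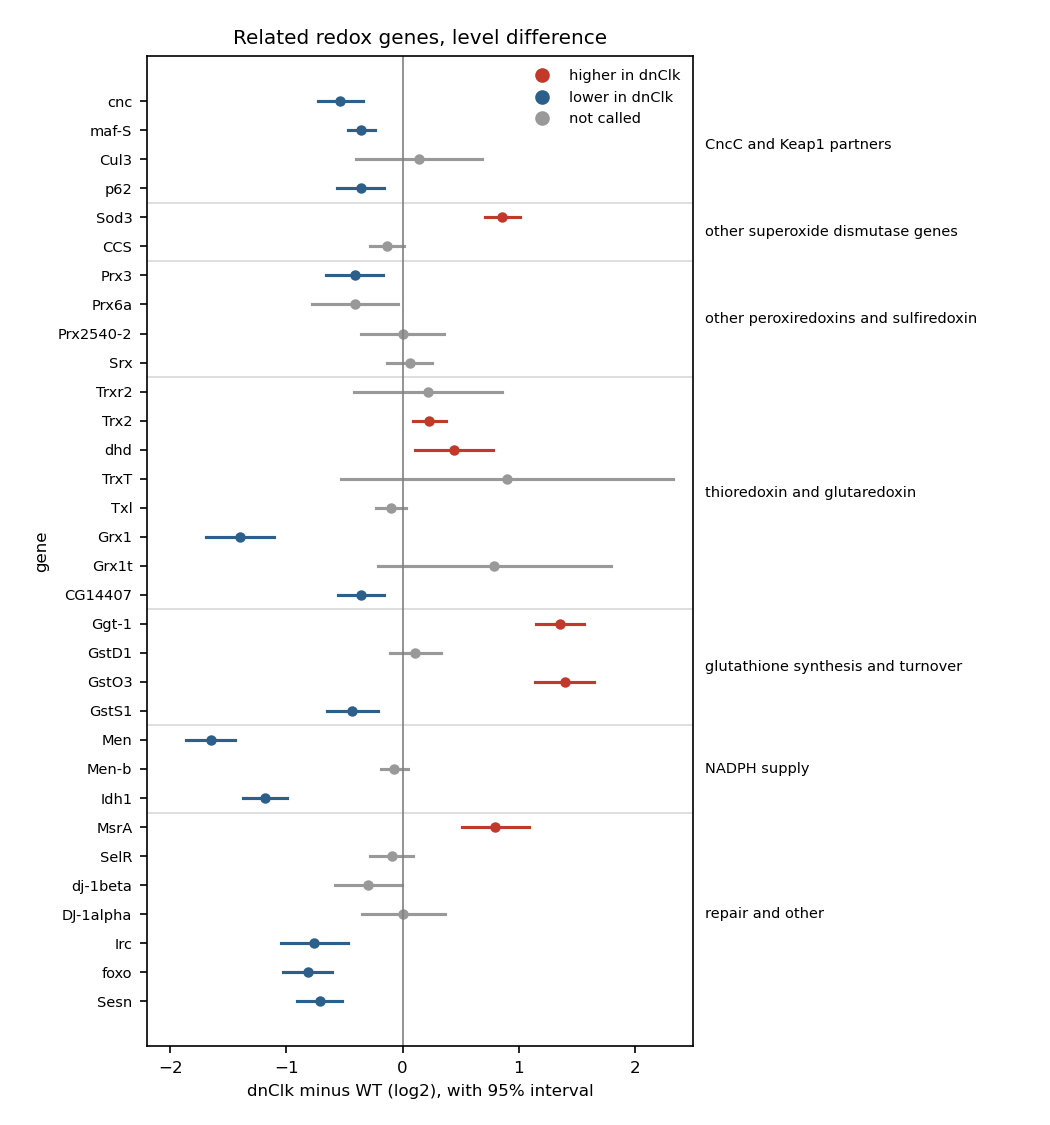
Level difference of the 32 tested related redox genes, dnClk minus WT in log2 units, with 95% intervals before adjustment, grouped by role, as deposited. Red marks the 6 called higher in dnClk, blue the 12 called lower and grey the 14 not called. Men lies lowest at -1.65 and GstO3 highest at 1.40. After scaling to the hybridisation controls all 32 were called higher, as were 98.5% of all tested probe sets.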

How the data were processed

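The deposited table held 1 column per array, and all 36 columns matched a sample by name. Values were probe set intensities on a linear scale, which the authors computed in MAS5 (per the submitters' processing notes, with no version). The authors' scaling left each array with a trimmed mean of 150.0 intensity units over all probe sets (2% off each end), and it was kept. No 2 arrays held identical values, and depth in arrays means only that their number limits the precision.

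After 183 control probe sets were set aside, 18769 remained, and testing was limited to the brightest 60% by mean log2 value, 11261 probe sets, the dimmest averaging 31.99. Values were taken as log2(intensity + 16), so fold changes are on that scale and are understated for dim genes. In GEO's platform annotation 4720 probe sets carried no gene symbol, 402 carried several and 13647 carried 1, of which 13544 were brought up to date through RefSeq's gene table (assembly Release 6). Names were used only where a probe set carried 1 symbol, and the brightest probe set stood for its gene. No coordinates or sequences are given.

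limma 3.58.1 in R 4.3.3 fitted 24 h cosine and sine terms, a genotype term (dnClk minus WT), genotype by cosine terms, and day terms (day 2 minus day 1). Adjusted p-values are Benjamini-Hochberg over all 11261 probe sets, and calls use 0.05. Named related genes were, in each direction, up to 6 called genes with the largest difference, and any called in a rhythm test. In addition, cnc, maf-S, p62, GstD1, CCS and Prx2540-2 were named outside this rule. Names of similar genes were the 3 with the highest r in WT. The fits were tested on simulated data, where many rhythms and day differences of 0.5 log2 units were missed, above all in dnClk. Members, lists and tests were chosen with earlier results of these data known. Alternatives covered pseudocounts of 1 and 64, filters, normalizations, covariates, times and left-out arrays.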

Additional observations from a re-analysis of the deposited data

Results flagged for a closer look

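Prx2540-2, a peroxiredoxin whose current symbol is Prx6c, differed between genotypes in its change between collection days, by the joint fit that was added after the data were seen, and it was chosen for mention after its value was seen. In dnClk it averaged 9.62 ± 0.24 log2 units on day 2 and 10.07 ± 0.12 on day 1 (SD, n = 6 each), a difference of -0.45 (limma adjusted p = 0.093). In WT it averaged 10.16 ± 0.605 on day 2 and 9.53 ± 0.30 on day 1 (SD, n = 12 each), a difference of 0.63 (limma adjusted p = 0.072). The day difference in dnClk minus that in WT was -1.08 ± 0.29 (SE, limma adjusted p = 0.037). Of the 32 tested related genes, Prx2540-2 alone was called in that fit, beside 2.57% of all tested probe sets. It was higher on day 2 in 0 of 6 same-hour pairs in dnClk and in 9 of 12 in WT. The WT fat body marker mean was 10.63 on day 2 and 10.35 on day 1, and its part in the difference was not tested.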

How the results depend on the processing

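The count of 7 genes called higher in dnClk was 1, and it was 3 after quantile normalization, 7 after scaling to the hybridisation controls, 2 with the testis and accessory gland covariates and 5 with the fat body covariate. The shares of all tested probe sets called higher, in the same order, were 39.3%, 20.2%, 98.5%, 27.8% and 28.4%. The count called lower was 2, and it was 0 after control scaling and 1 with the fat body covariate. The shares called lower, in that order, were 17.7%, 0.63% and 22.4%. After control scaling 32 related genes were higher and 0 lower. Differences that changed sign under control scaling were Sod2 at 1.68, Cat at 1.33, Gclm at 1.70 and PHGPx at 2.03. Under quantile normalization Cat was 0.13, PHGPx 0.90 and Keap1 -0.11, and under centring Gclc was -0.11 and Keap1 -0.20. With the testis and accessory gland covariates Sod2 was 0.0496 and PHGPx 0.27, and with the fat body covariate Sod2 was 0.97 and PHGPx 0.93. PHGPx was 0.0331 at the shared times, with or without a time block, and 0.10 on the second day. Keap1 was -0.0663 on the first day and -0.0166 without the 12 WT arrays with high testis means. The cause of these changes was not tested.

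Genes differing between days in WT numbered 0, and 1 with the testis and accessory gland covariates, 2 without the WT array at ZT 36, and 0 to 2 when each array was left out. Of all tested probe sets, 27.7% were called with these covariates and 9.13% without ZT 36. The main fit called 0.391% higher on day 2 and 1.96% lower. The count whose day difference differed between genotypes was 0, and 1 with the testis and accessory gland covariates, 1 without ZT 36, 3 with the fat body covariate and 0 to 1 when each array was left out. The shares of all probe sets were 2.57% in the main fit, 9.55% with the testis and accessory gland covariates, 7.18% without ZT 36 and 5.62% with the fat body covariate. Counts of rhythmic genes and of rhythm differences were 0 under every alternative run. Pairing arrays by shared time left Trxr1, Cat and their directions as called, took Sod2 to -0.33 (limma adjusted p = 0.053) and called Gclm lower at -0.32 (limma adjusted p = 0.038). The fat body covariate and the analyses without high-testis WT arrays, which kept all dnClk arrays, were added after the data were seen. Each of the 7 genes has 1 probe set, so none was compared with another. Some related genes, such as cnc and Sod3, had 2, and only the brighter was used. No detection call was used here, so signal over background was judged only by the brightness filter, which all 7 passed.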
